A study of Mus musculus with 15 samples.

Results

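Forebrain and alar plate of the embryonic mouse brain were compared gene by gene, with 3 RNA-seq libraries of each region out of the 15 libraries and 5 regions of the study. The 6 libraries were chosen by their region labels alone. All came from E12.5 embryos (days of gestation) of C57bl/6 mice whose green fluorescent protein was driven by the Th promoter. That promoter belongs to tyrosine hydroxylase, the enzyme that starts dopamine synthesis, and the forebrain and alar plate samples carried the reporter alike. Each tissue was cut out under a microscope, its RNA was isolated with Trizol, and 200 ng went into an Illumina TruSeq preparation. The labels give neither the axial level of the alar plate nor the part of the forebrain that was taken. Nor is it stated that each library is a different embryo or pool of embryos. The p-values below therefore rest on library-to-library spread, part of which may be technical. Of the 24264 genes listed, the 12871 with at least 1 RPKM in at least 3 of the 6 libraries were tested. RPKM is the read count of a gene divided by the length of its gene model and by the mapped reads of the library.

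The wall of the neural tube is divided along its dorsal to ventral axis. Its dorsal part, the alar plate, is patterned by Wnt and BMP signals from the roof plate, while the basal plate lies next to the floor plate, which secretes Sonic hedgehog. Along the length of the brain, transcription factors such as Gbx2 in the thalamus, Pax3 and Pax7 in pretectum and tectum, and En1 and En2 in the midbrain mark successive territories. At this stage progenitors still divide along the ventricle while the first neurons send out axons.

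Genes were ranked by difference if forebrain and alar plate libraries did not overlap and the higher region averaged at least 5 RPKM. Those with the largest differences included members of gene lists for floor and basal plate, midbrain dopaminergic neurons, and tectum and pretectum. Forebrain libraries held more Nr4a2, Ddc, Foxa1 and Shh, and fewer transcripts of Pou4f1, Pou4f2, En2, Mab21l1 and the retinoic acid genes Cyp26b1 and Crabp1, than alar plate libraries. No gene passed the test over the 6 libraries, and 1 library of each region stood apart from the other 2. Differences are therefore given below as values, with the same test repeated without those 2 libraries. In dissected tissue, fewer cells of a type and less RNA per cell cannot be told apart.

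Depth was similar in both regions. The recovered reads in gene models numbered 8056329 to 10345922 in forebrain libraries and 8536750 to 11775206 in alar plate libraries, and 3 reads of a gene of median length corresponded to 0.0866 to 0.112 RPKM in forebrain libraries and to 0.0771 to 0.103 RPKM in alar plate libraries. Such a floor covers counting error only. Across the tested genes, forebrain 2 and forebrain 3 correlated at Pearson r = 0.990 on the log2(RPKM + 1) scale, and alar plate 1 and alar plate 2 at 0.988. Forebrain 1 was closer to alar plate 1 and 2 (0.967 and 0.970) than to forebrain 2 and 3 (0.960 and 0.957). Alar plate 3 correlated at 0.919 and 0.915 with alar plate 1 and 2, at 0.920 with forebrain 1, and at 0.881 and 0.887 with forebrain 2 and 3. Genes are not independent replicates, and these correlations describe the libraries only.

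Alar plate 3 also carried a steep trend with gene length, opposite in sign to that of the others of the 6 libraries. The deviation of a gene from its mean over the 6 libraries had a Spearman correlation of 0.29 to 0.35 with gene length in the forebrain libraries, of 0.33 and 0.37 in alar plate 1 and 2, and of -0.62 in alar plate 3. That mean includes alar plate 3, so its trend by itself lends the other libraries a trend of opposite sign. In the shortest 10% of genes, with a median length of 923 bases, alar plate 3 lay 0.64 above the gene mean in log2 units. In the longest 10%, with a median of 9057 bases, it lay 0.69 below. Its part in the differences was not tested directly, but a version with the trend removed from every library is given beside the results it touches. After that correction alar plate 3 correlated at 0.942 with forebrain 1, 0.938 with alar plate 1 and 0.935 with alar plate 2.

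**Figure D1:**
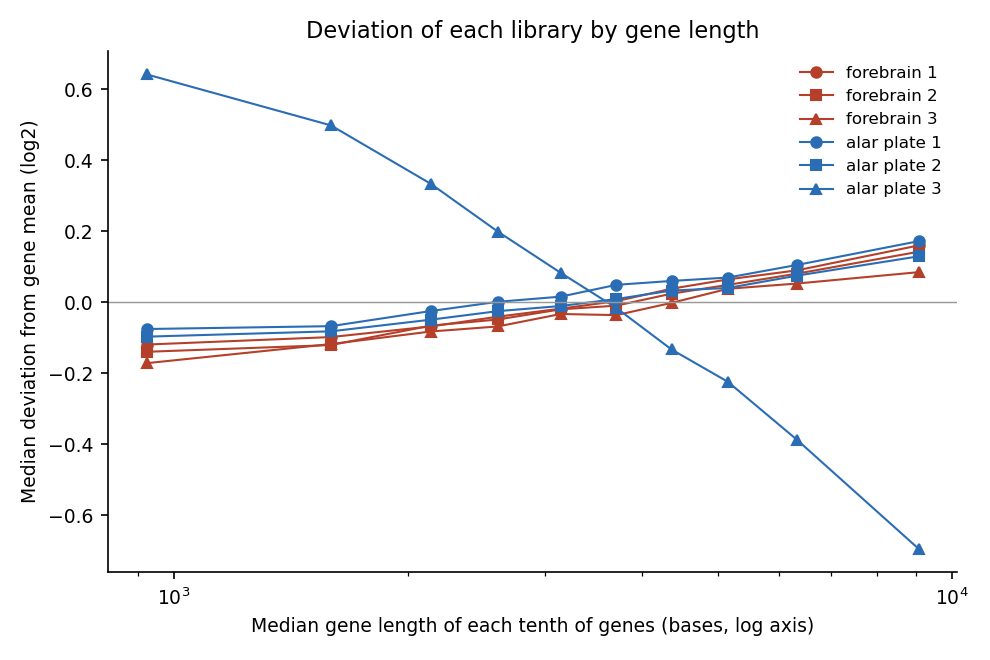
Median deviation of each library from the gene mean (log2 units, vertical axis) for 10 equal bins of the tested genes by recovered gene length (bases, log axis), with forebrain libraries in red and alar plate libraries in blue. Alar plate 3 runs from 0.64 in the shortest bin to -0.69 in the longest, while the other 5 libraries stay between -0.17 and 0.17.

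The region labels were checked against genes that mark territories, and from here on the 3 values of a region are those of its libraries 1, 2 and 3, in that order. Lhx6 and Lhx8, of ventral telencephalic interneurons, were at or under 0.0998 RPKM in all 6 libraries. The 16 Hox genes listed, which mark the hindbrain and spinal cord, summed to 0.0626, 0.519 and 0.302 RPKM in forebrain and to 0.0643, 0 and 0.0367 RPKM in alar plate. None of the 16 reached the level for testing.

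Forebrain 1 and alar plate 3 each held genes of thalamus and prethalamus that the other 2 libraries of their region held at low levels. Gbx2, a factor of the thalamic mantle, had 111, 8.89 and 5.44 RPKM in forebrain and 0.0989, 0 and 72.99 RPKM in alar plate. Olig3, of thalamic progenitors, had 39.6, 1.57 and 2.93 RPKM in forebrain and 0.407, 0.297 and 51 RPKM in alar plate. Dlx1, a homeobox gene of prethalamic and other GABAergic neurons, had 26.1, 0.0370 and 5.89 RPKM in forebrain and 0.229, 0.0558 and 20.2 RPKM in alar plate. In all 3 genes forebrain 1 and alar plate 3 were the highest of the 6 libraries. Not all members of the thalamus list followed this. Irx1 had 35.9, 45.8 and 24.3 RPKM in forebrain and 31.6, 40.3 and 23.6 RPKM in alar plate. Dbx1 had 32.5, 13.7 and 30.7 RPKM in forebrain and 58.9, 58.8 and 33.5 RPKM in alar plate.

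The same held for a further gene of the thalamus list and for a gene of the roof plate list. Neurog2, a proneural factor, had 108, 21.6 and 31.7 RPKM in forebrain and 19.1, 15.3 and 123 RPKM in alar plate, and Zic1, of the dorsal neural tube, had 92.3, 19.2 and 8.40 RPKM in forebrain and 10.5, 5.29 and 99.5 RPKM in alar plate. The groups overlapped in each of these genes, with 1 high library in each region. Some genes were high in alar plate 3 alone. Tbr1, of early cortical and other glutamatergic neurons, had 0.0749, 0.0261 and 0.101 RPKM in forebrain and 0.0540, 0.0986 and 23.2 RPKM in alar plate. Fezf1, of the rostral forebrain, had 1.18, 0 and 0.0342 RPKM in forebrain and 0.0610, 0 and 11.7 RPKM in alar plate. Ttr, which the choroid plexus makes in bulk, had 0, 0.403 and 0.187 RPKM in forebrain and 0.0556, 0 and 89.3 RPKM in alar plate. By these markers the library labelled alar plate 3 held transcripts of rostral territories that alar plate 1 and 2 lacked.

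**Figure D2:**
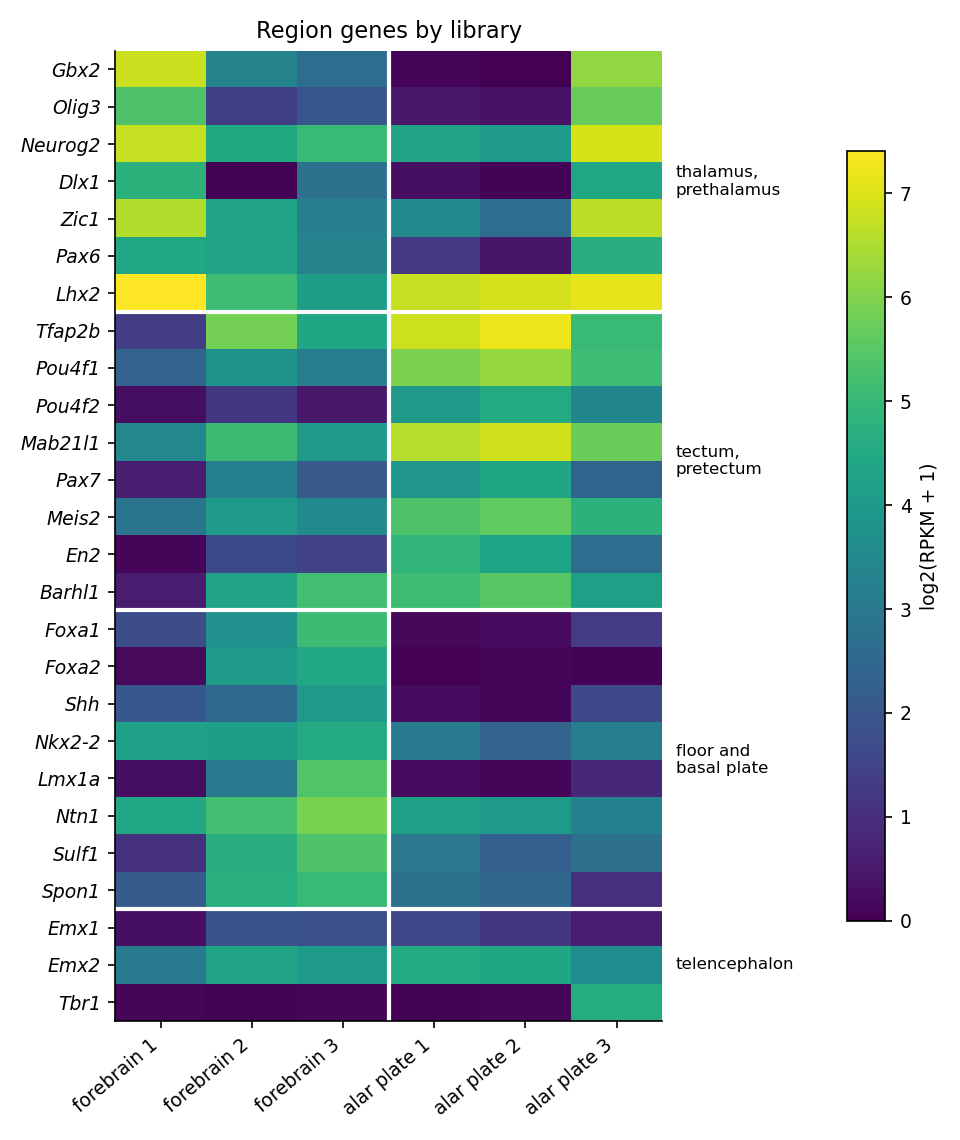
Level of 26 region genes, as log2(RPKM + 1) in colour, in the 3 forebrain libraries (left) and the 3 alar plate libraries (right), with genes grouped by territory. The genes shown under thalamus and prethalamus, which include Zic1 of the dorsal neural tube, are brightest in forebrain 1 and alar plate 3. Other members of those lists are not shown, and not all of them follow. Most floor and basal plate genes are brightest in forebrain 2 and 3, and most tectal and pretectal genes in alar plate 1 and 2.

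Over all 6 libraries, limma called none of the 12871 genes (0%) at an adjusted p under 0.05, and the lowest adjusted p was 0.116, for Arl4d. At an unadjusted p under 0.05 there were 1053 genes, 541 higher in forebrain (4.2% of those tested) and 512 lower (3.98%). In 1072 genes all 3 forebrain libraries lay above all 3 alar plate libraries (8.33%), and in 1426 they all lay below (11.1%). A gene under 1 RPKM in all 3 libraries of 1 region could pass the filter only through the other region. Its lack of overlap was then fixed by the filter, and these shares include such genes. Fitted without forebrain 1 and alar plate 3, the same test called 2833 genes (22%), 1363 higher in forebrain (10.6%) and 1470 lower (11.4%). Those 2 libraries were left out with their deviation known, which narrows the spread that the test sees, so the adjusted p of that fit are too small as a measure of the regions and its calls are given as a description of the 4 other libraries. It is called the 4-library comparison below, with 2 samples of each region. With 1 more library left out it called 552 to 2216 genes, and with no filter on low levels none.

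**Figure D3:**
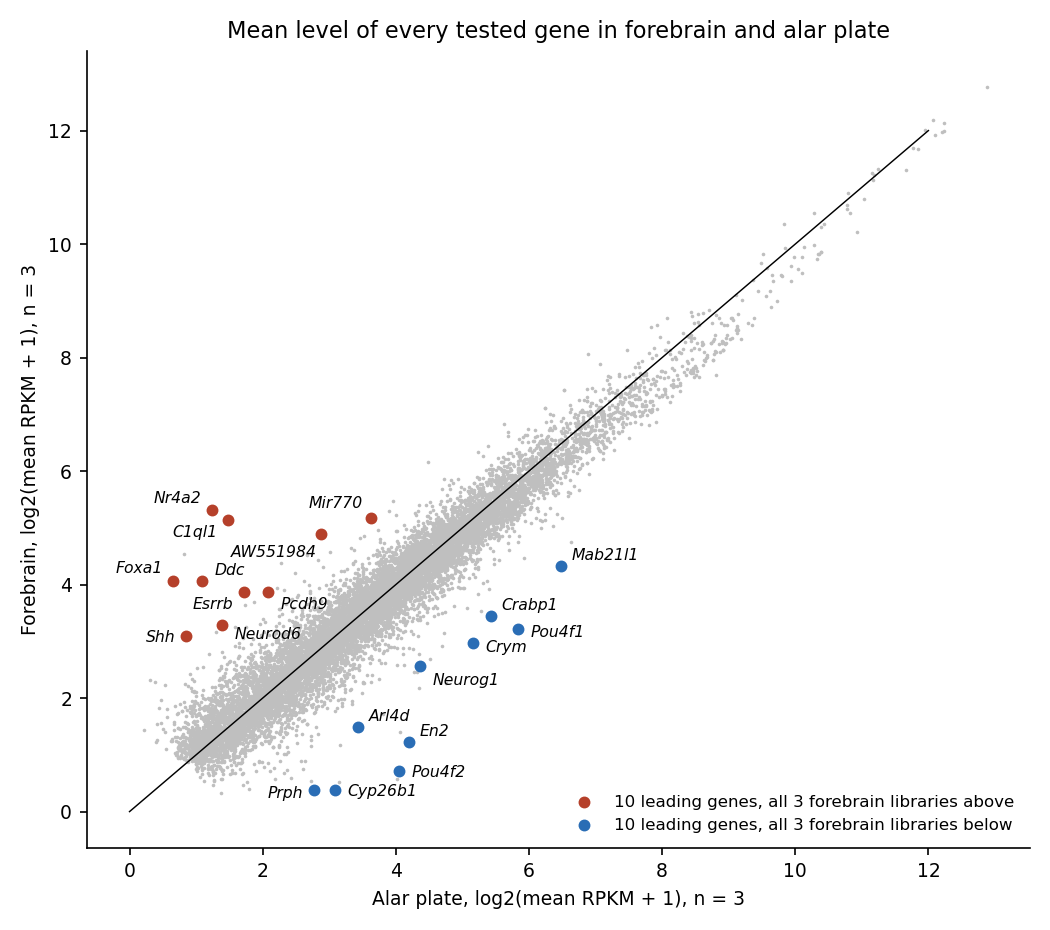
Mean level of each of the 12871 tested genes in forebrain (vertical axis) and alar plate (horizontal axis), as log2(mean RPKM + 1) over 3 libraries each, with the line of equal levels. The 10 leading genes above the line (red) and below it (blue) are named, and the 3 libraries of one region lie on one side of the other region's 3 in each of them.

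The 10 genes with the largest differences in which all forebrain libraries lay above all alar plate libraries, with a mean of at least 5 RPKM in forebrain, were Nr4a2, C1ql1, Foxa1, Ddc, Shh, Esrrb, Neurod6, AW551984, Pcdh9 and Mir770. They were chosen by size from 789 such genes, so that their size is no result in itself. Their adjusted p over 6 libraries, with those of the 10 lowest genes, lay between 0.116 and 0.566. All 20 were called in the 4-library comparison, which uses 4 of the libraries they were chosen on and is no independent support for them. In 9 of the 10 upper genes forebrain 1 was the lowest forebrain library.

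Nr4a2 encodes Nurr1, the orphan nuclear receptor that midbrain dopaminergic neurons need. It had 8.15, 48.2 and 60.6 RPKM in forebrain, against 1.73, 0.979 and 1.39 RPKM in alar plate. The 2 highest forebrain libraries stood far above forebrain 1, which in turn stood above all alar plate libraries. The log2 difference was 3.69 ± 0.69 (SE, n = 3 each), with an adjusted p of 0.275 by limma, and 4.57 without forebrain 1 and alar plate 3. Ddc, the enzyme that makes dopamine from L-DOPA, had 2.14, 20.7 and 24.4 RPKM in forebrain, against 1.07, 0.734 and 1.56 RPKM in alar plate. Forebrain 1 was within 1 RPKM of the highest alar plate library. The difference of Ddc was 2.52 ± 0.77 (SE, n = 3 each; limma adjusted p = 0.528). Th itself, the gene whose promoter drives the reporter, had 2.25, 4.24 and 6.39 RPKM in forebrain, against 2.96, 1.64 and 2.21 RPKM in alar plate, and the groups overlapped.

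Since Nr4a2 and Ddc lay above together, their promoters are shown from RefSeq (GRCm38.p6, 250 bases before to 50 after the start, read on the gene's strand). Nr4a2 lies on the minus strand at chr2:57123954-57124253 and the promoter shown for Ddc on the minus strand at chr11:11898095-11898394. The letters AAAGGTCA, the element to which receptors of the Nr4a family bind as monomers, were searched on both strands. For Ddc a promoter was shown only if it held these letters, so its match follows from that choice and links the 2 genes in no way. Capitals mark the single match, which lies on the opposite strand, so that its complement is printed, and which begins at base 178 of the 300 for Ddc.
Nr4a2: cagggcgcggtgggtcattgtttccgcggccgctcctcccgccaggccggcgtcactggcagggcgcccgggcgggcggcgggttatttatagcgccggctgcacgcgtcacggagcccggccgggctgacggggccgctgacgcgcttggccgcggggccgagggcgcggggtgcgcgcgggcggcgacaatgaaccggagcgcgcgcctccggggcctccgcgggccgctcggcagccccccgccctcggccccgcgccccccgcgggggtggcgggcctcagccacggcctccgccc
Ddc: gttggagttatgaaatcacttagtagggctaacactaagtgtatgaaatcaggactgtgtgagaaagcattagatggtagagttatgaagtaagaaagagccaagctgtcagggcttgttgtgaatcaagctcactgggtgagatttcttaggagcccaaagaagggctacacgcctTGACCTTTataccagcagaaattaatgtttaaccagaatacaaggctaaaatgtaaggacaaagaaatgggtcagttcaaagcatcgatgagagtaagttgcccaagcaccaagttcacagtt
The element occurred in 495 of 32851 RefSeq promoters of this length (1.51%), and in 1 of the 19 promoters of the 14 leading genes that have one. A match is a description of the letters and not a binding site, and the absence of these letters from the window shown for Nr4a2 says nothing of other stretches.

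Foxa1, a forkhead factor of the floor plate, had 2.35, 12.3 and 32.5 RPKM in forebrain, against 0.112, 0.171 and 1.46 RPKM in alar plate. The 3 forebrain libraries were all above the highest alar plate library, alar plate 3. Its difference was 2.96 ± 0.81 (SE, n = 3 each; limma adjusted p = 0.474). Shh, the secreted hedgehog ligand, had 3.09, 4.77 and 14.9 RPKM in forebrain, against 0.186, 0.0871 and 2.12 RPKM in alar plate. Forebrain 3 was the highest and alar plate 3 the highest of the alar plate libraries. The difference of Shh was 2.18 ± 0.61 (SE, n = 3 each; limma adjusted p = 0.478).

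The other 6 were of mixed kinds. C1ql1, a secreted C1q-like protein that acts at synapses, had 2.95, 40.7 and 58.7 RPKM in forebrain, against 1.96, 1.19 and 2.18 RPKM in alar plate, with forebrain 1 close to the alar plate libraries. Esrrb, an orphan nuclear receptor, had 16.5, 16.9 and 7.43 RPKM in forebrain, against 1.46, 2.54 and 2.84 RPKM in alar plate. Neurod6, a basic helix-loop-helix factor of differentiating neurons, had 6.64, 10.3 and 9.40 RPKM in forebrain, against 0.880, 1.71 and 2.30 RPKM in alar plate. Both receptor and factor were tighter among the forebrain libraries than Nr4a2 was, with differences of 2.10 ± 0.34 and 1.91 ± 0.26 (SE, n = 3 each).

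The adhesion protein Pcdh9 had 9.41, 17.5 and 13.8 RPKM in forebrain, against 3.11, 3.26 and 3.30 RPKM in alar plate, and its difference was 1.75 ± 0.22 (SE, n = 3 each; limma adjusted p = 0.182). AW551984, named here only by its symbol, had 8.65, 32.3 and 45.5 RPKM in forebrain, against 6.89, 8.06 and 3.98 RPKM in alar plate. The entry Mir770 had 25.7, 40.6 and 39.1 RPKM in forebrain, against 17.03, 13.7 and 3.53 RPKM in alar plate. That entry has a recovered length of 224 bases, longer than a mature miRNA, and whether its reads belong to a surrounding transcript was not tested.

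**Figure D4:**
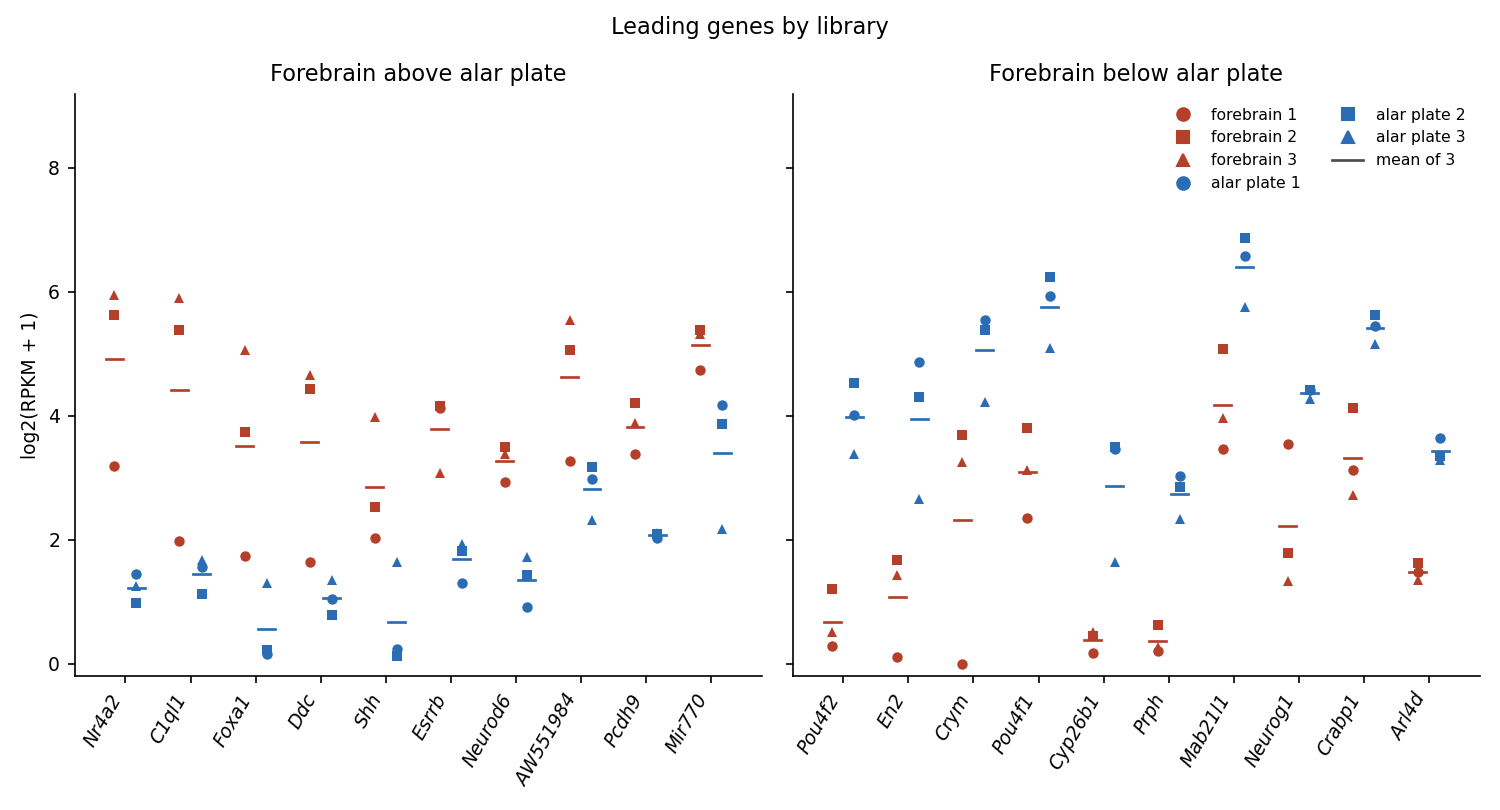
Level of the 10 leading genes in each direction, as log2(RPKM + 1) in each forebrain library (red, left of each pair) and each alar plate library (blue, right), with bars at the mean of 3. In the left panel forebrain 1 (circles) is the lowest forebrain library in 9 of 10 genes, and in the right panel alar plate 3 (triangles) is the lowest alar plate library in 10 of 10.

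On the other side, the 10 leading genes were Pou4f2, En2, Crym, Pou4f1, Cyp26b1, Prph, Mab21l1, Neurog1, Crabp1 and Arl4d, chosen by the same rule from 1153 genes whose forebrain libraries all lay below. In all 10, alar plate 3 was the lowest of the alar plate libraries. Pou4f2 and Pou4f1 are POU-domain factors of sensory and midbrain neurons. Pou4f2 had 0.215, 1.32 and 0.423 RPKM in forebrain, against 15.2, 22.1 and 9.50 RPKM in alar plate. Its difference was -3.31 ± 0.36 (SE, n = 3 each; limma adjusted p = 0.158). Pou4f1 had 4.10, 12.97 and 7.78 RPKM in forebrain, against 60.2, 74.8 and 33.3 RPKM in alar plate, a difference of -2.66 ± 0.43 (SE, n = 3 each; limma adjusted p = 0.217). The gap between the regions was wide in both genes, with the lowest alar plate library above the highest forebrain library.

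En2, the Engrailed factor of the midbrain and isthmus, had 0.0839, 2.19 and 1.70 RPKM in forebrain, against 28.2, 18.7 and 5.32 RPKM in alar plate. Alar plate 1 was the highest and forebrain 1 was near the floor. Mab21l1, which eye development needs, had 10.1, 32.6 and 14.6 RPKM in forebrain, against 95.04, 116 and 52.9 RPKM in alar plate. Neurog1, a proneural factor, had 10.7, 2.47 and 1.54 RPKM in forebrain, against 20.3, 20.3 and 18.3 RPKM in alar plate, where the 3 libraries lay close together. Their differences were -2.87, -2.24 and -2.14 for En2, Mab21l1 and Neurog1.

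Genes of retinoic acid metabolism and of the cytoskeleton completed the set. Cyp26b1, which degrades retinoic acid, had 0.123, 0.366 and 0.433 RPKM in forebrain, against 10.1, 10.3 and 2.13 RPKM in alar plate. Crabp1, which binds it in the cytoplasm, had 7.74, 16.4 and 5.58 RPKM in forebrain, against 42.9, 48.4 and 34.6 RPKM in alar plate. Forebrain was below alar plate in both genes in every library. Cyp26b1, like Prph, was under 1 RPKM in every forebrain library and passed the filter only through alar plate. For Cyp26b1 and Prph the lack of overlap was thus fixed. Prph, the intermediate filament peripherin, had 0.155, 0.542 and 0.210 RPKM in forebrain, against 7.21, 6.22 and 4.03 RPKM in alar plate, and a difference of -2.37 ± 0.23 (SE, n = 3 each; limma adjusted p = 0.158).

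Crym, a thyroid hormone binding protein, had 0, 11.9 and 8.50 RPKM in forebrain, against 45.8, 41.01 and 17.7 RPKM in alar plate. No read of it was seen in forebrain 1, where 3 reads of a gene of median length would be 0.107 RPKM. Arl4d, a small GTPase, had 1.79, 2.08 and 1.56 RPKM in forebrain, against 11.4, 9.22 and 8.77 RPKM in alar plate. The libraries of each region were close to each other, and its difference of -1.94 ± 0.16 (SE, n = 3 each) gave the lowest adjusted p of the whole comparison.

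In the list of floor plate and basal plate genes, which make or respond to ventral signals, 12 of 18 members passed the level for testing. All 12 had a positive difference, with a median of 1.203 against -0.03 over all tested genes. In 7 of the 12 the forebrain libraries all lay above the alar plate libraries (8.33% of all genes did so), in none below, and 10 of the 12 were called higher in the 4-library comparison. The 7 were Shh, Foxa1, Ntn1, Nkx2-2, Sim1, Slit1 and Slit2. The lists overlap, so that a gene such as Shh or Nkx2-2 counts in several, and most members that lay apart are named. Beside the counts of each list stand the shares of all tested genes, 8.33% wholly above and 11.1% wholly below. In the 4-library comparison the shares are 10.6% called higher and 11.4% called lower. Members named with values for other reasons than their level include Gas1, Slc6a3, Chat, Sox3, Sema3c, Efna5, Epha3, Npy, Cartpt and Sox10. These were chosen after their values were seen. Some members of the region lists, among them Fezf1, Pax5, Cnpy1, Fgf8, Nkx2-1 and Foxa2, were also not named by level. They were given as a check of the labels, with earlier results of these data known. Ntn1, the axon attractant netrin-1, had 20.5, 35.9 and 59.2 RPKM in forebrain, against 17.5, 15.4 and 8.52 RPKM in alar plate. Nkx2-2, a hedgehog-induced factor, had 18.1, 16.4 and 22.1 RPKM in forebrain, against 7.29, 4.16 and 7.94 RPKM in alar plate, and in both genes the regions did not overlap.

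Other members were low in forebrain 1. Foxa2, a forkhead factor of the floor plate, had 0.137, 16.2 and 20.6 RPKM in forebrain, against 0, 0.0722 and 0.0439 RPKM in alar plate. Lmx1a, of floor plate and dopaminergic progenitors, had 0.207, 6.93 and 41.3 RPKM in forebrain, against 0.192, 0.0935 and 0.825 RPKM in alar plate. Sulf1, an extracellular sulfatase, had 1.09, 24.03 and 40.6 RPKM in forebrain, against 6.68, 3.68 and 5.67 RPKM in alar plate. In the 3 genes forebrain 2 and 3 were above every alar plate library. Forebrain 1 was below alar plate 3 in Lmx1a and below all 3 alar plate libraries in Sulf1. The log2 difference of Sulf1 was 1.06 ± 1.05 over 6 libraries (limma adjusted p = 0.650) and 2.43 without forebrain 1 and alar plate 3.

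The hedgehog signalling list had 13 of 15 members tested and a median difference of -0.21 (-0.64 without forebrain 1 and alar plate 3). Of these 4 lay wholly above (among them Shh, Ptch1 and Nkx2-2) and 2 wholly below in forebrain (Boc and Gas1). Ptch1, the receptor and a target of the pathway, had 35.6, 23.9 and 24.3 RPKM in forebrain, against 15.5, 11.8 and 4.19 RPKM in alar plate. Boc, a co-receptor that the pathway represses, had 5.78, 5.17 and 2.49 RPKM in forebrain, against 20.8, 26.5 and 9.22 RPKM in alar plate. Smo, the signal transducer, had 17.02, 10.8 and 11.6 RPKM in forebrain, against 19.9, 17.1 and 12.7 RPKM in alar plate, and overlapped. Gas1, another co-receptor, had 3.53, 2.80 and 0.867 RPKM in forebrain, against 6.57, 7.64 and 8.29 RPKM in alar plate, below in every library. Without forebrain 1 and alar plate 3, 4 of the 13 were called higher and 7 lower, beside 10.6% and 11.4% of all tested genes.

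Of 17 genes of midbrain dopaminergic neurons, 10 were tested, with a median difference of 0.81. The 3 wholly above were Ddc, Nr4a2 and Foxa1, and the 1 wholly below was En2. Dlk1, a Notch-like membrane protein, had 41.1, 34.6 and 36.6 RPKM in forebrain, against 12.1, 7.99 and 35.5 RPKM in alar plate, where alar plate 3 stood with the forebrain libraries. Slc6a3, the dopamine transporter of mature neurons, had 0, 1.14 and 1.34 RPKM in forebrain, against 0.0413, 0 and 0 RPKM in alar plate. It stayed below the level for testing.

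All 22 genes of the tectum and pretectum list were tested, with a median difference of -1.12. Forebrain lay wholly below in 10 of them (11.1% of all genes did so) and wholly above in 1. The 10 were Meis2, Otx2, Dmbx1, Barhl2, Mab21l1, Pou4f1, Pou4f2, Crabp1, Efnb1 and Efna5, and the 1 above was Nr2f2, an orphan nuclear receptor. Most are transcription factors, while Efnb1 and Efna5 are ephrin ligands, and without forebrain 1 and alar plate 3 the test called 12 lower and 2 higher. Tfap2b, a factor of tectal neurons, had 1.52, 56.6 and 19.5 RPKM in forebrain, against 113, 149 and 31.3 RPKM in alar plate. Forebrain 2 overlapped alar plate 3. Otx2, the factor of forebrain and midbrain identity, had 41.4, 35.5 and 25.6 RPKM in forebrain, against 82.8, 81.1 and 59.1 RPKM in alar plate. Meis2, a homeobox factor of the tectum, had 6.28, 15.1 and 10.6 RPKM in forebrain, against 39.9, 47.6 and 26.05 RPKM in alar plate, and every forebrain library was below every alar plate library in both Otx2 and Meis2, with differences of -1.11 and -1.77.

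The paired-box genes differed among themselves. Pax7 had 0.535, 8.46 and 3.16 RPKM in forebrain, against 13.5, 19.6 and 4.22 RPKM in alar plate, and Pax3 had 2.49, 8.66 and 1.68 RPKM in forebrain, against 10.4, 16.3 and 5.69 RPKM in alar plate, with overlap in both. Pax6, which marks diencephalon and pretectum, had 20.9, 18.4 and 8.997 RPKM in forebrain, against 1.34, 0.361 and 23.9 RPKM in alar plate. Its alar plate 1 and 2 were low and alar plate 3 was the highest of all 6, so that the difference was 1.91 ± 1.04 over 6 libraries (limma adjusted p = 0.566) and 2.96 in the 4-library comparison.

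Midbrain and isthmus genes were mostly low. Of 14 listed, 6 were tested, with a median difference of -0.57, and En2 alone lay wholly below. Pax5, of the isthmus, had 0.0778, 0.0814 and 0 RPKM in forebrain, against 16.8, 2.09 and 0 RPKM in alar plate, with alar plate 1 standing apart, and was not tested. Cnpy1, an FGF-pathway gene of the midbrain-hindbrain boundary, had 0.299, 0.581 and 0.381 RPKM in forebrain, against 8.63, 4.73 and 0.370 RPKM in alar plate. Fgf8, the signal of the isthmus, had 0, 0 and 0 RPKM in forebrain, against 0.776, 0 and 1.52 RPKM in alar plate.

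Thalamus and habenula genes, 19 of 19 tested, had a median difference of 0.29 (-0.09 without forebrain 1 and alar plate 3), with 1 wholly above (Foxp2) and 4 wholly below in forebrain (Dbx1, Neurog1, Pou4f1 and Irx3). Tcf7l2, the effector of Wnt signalling that is abundant in thalamus and pretectum, had 403, 259 and 132 RPKM in forebrain, against 57.9, 80.4 and 215 RPKM in alar plate, overlapping through alar plate 3. Lhx2, a LIM-homeobox factor, had 169, 33.7 and 16.6 RPKM in forebrain, against 107, 121 and 141 RPKM in alar plate, and Lhx9, its relative, had 62.03, 23.9 and 12.7 RPKM in forebrain, against 64.3, 75.3 and 52.6 RPKM in alar plate. Forebrain 1 stood with the alar plate libraries in both. Without forebrain 1 and alar plate 3, 4 of the 19 were called higher and 7 lower. For the telencephalon list, 10 of 18 members were tested with a median of 0.55, and Neurod6 alone lay wholly above. The hypothalamus and prethalamus list had 11 of 20 tested, a median of -0.18, and Sim1 alone wholly above. Nkx2-1, which defines the hypothalamus, had 0.0343, 0.538 and 13.3 RPKM in forebrain, against 0.0248, 0 and 0 RPKM in alar plate, and exceeded 1 RPKM in forebrain 3 alone.

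The rostral thalamus and zona limitans list, 14 of 15 tested, had a median of -0.05, with 3 members wholly above (Shh, Nkx2-2 and Ptch1) and 2 wholly below. Sox14, of rostral thalamic and pretectal GABAergic neurons, had 9.26, 15.7 and 8.14 RPKM in forebrain, against 32.9, 41.7 and 23.2 RPKM in alar plate. Every forebrain library lay below every alar plate library. Roof plate and dorsal neural tube genes, 11 of 22 tested, had a median of -0.11 and none apart in either direction. Cerebellum and rhombic lip genes, 8 of 13 tested, had a median of -0.94 and none apart, and 3 were called lower without forebrain 1 and alar plate 3.

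**Figure D5:**
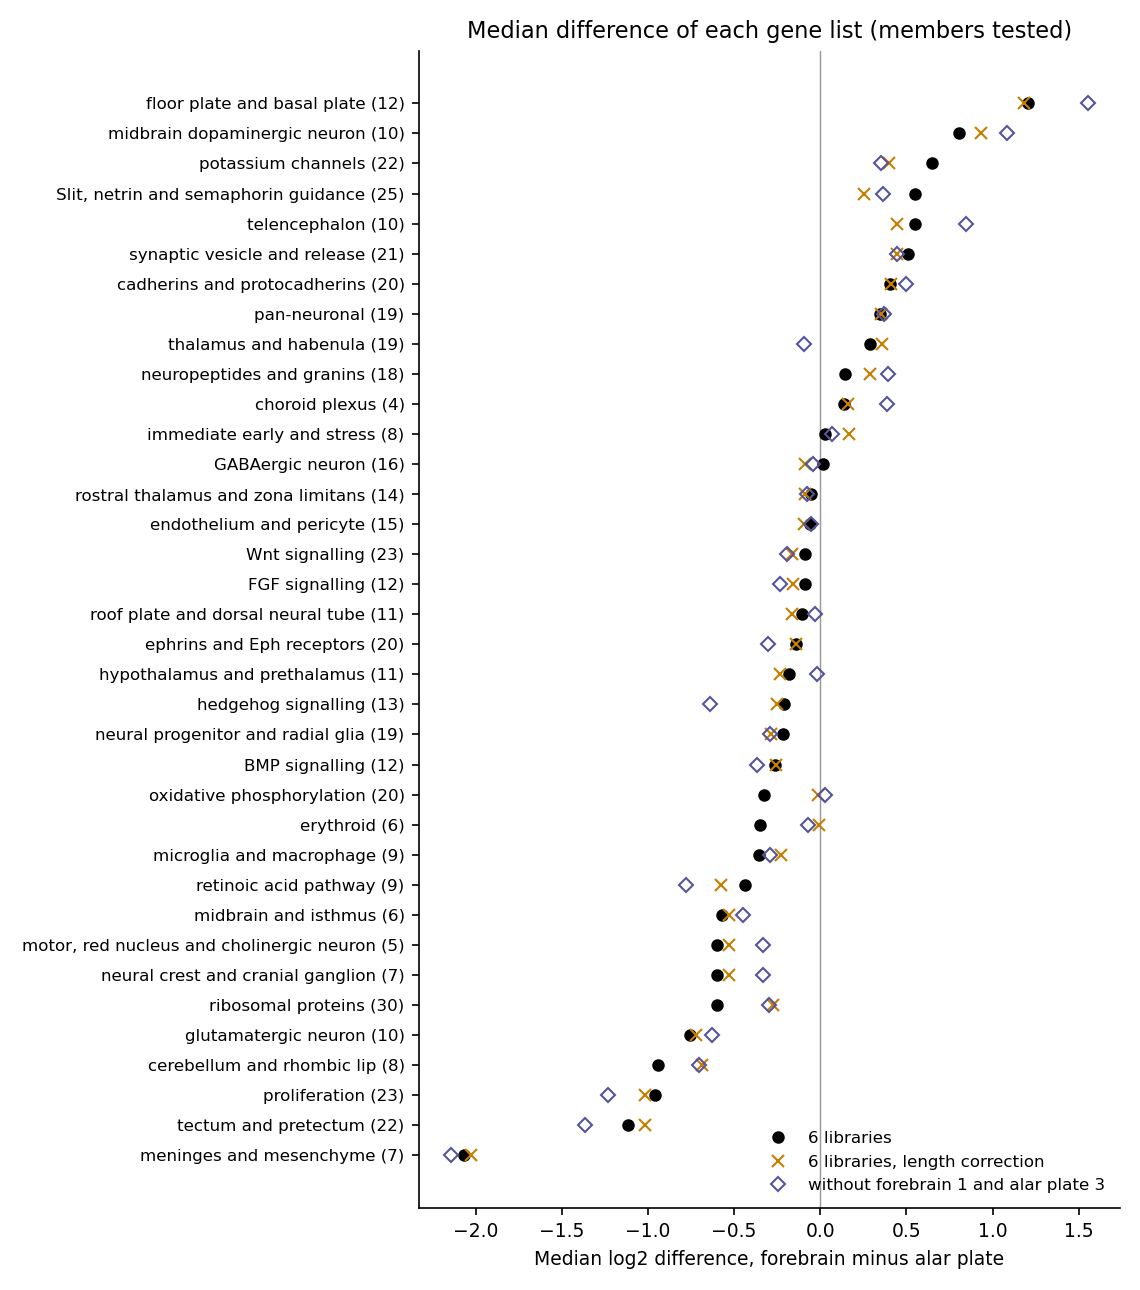
Median log2 difference, forebrain minus alar plate, of each gene list with at least 3 tested members (their number in brackets), over 6 libraries (black), with the length trend removed (crosses) and without forebrain 1 and alar plate 3 (open diamonds). Floor plate and basal plate genes lie at 1.203 and tectum and pretectum genes at -1.12 over 6 libraries.

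Among neuron classes, the GABAergic list had all 16 members tested, a median of 0.02, none wholly above and 2 wholly below (Sox14 and Helt). Beside this list and the 2 that follow, 8.33% of all tested genes lay wholly above and 11.1% wholly below. Tal2, of midbrain GABAergic precursors, had 31.5, 50.1 and 19.2 RPKM in forebrain, against 101, 79.7 and 35.4 RPKM in alar plate, and the regions overlapped. The glutamatergic list had 10 of 12 tested, a median of -0.75, 1 wholly above (Slc1a2) and 2 wholly below (Pou4f1 and Neurod4). Being in this list does not by itself show that Slc1a2 transcripts came from neurons. Slc17a6, the vesicular glutamate transporter of this list, had 48.6, 40.3 and 47.9 RPKM in forebrain, against 42.6, 50.5 and 35.8 RPKM in alar plate, a difference of 0.09 ± 0.17. Motor, red nucleus and cholinergic genes had 5 of 13 tested, a median of -0.60, 1 above (Ntng1) and 2 below (Pou4f1 and Prph). Chat, the enzyme of acetylcholine synthesis, chosen after its values were seen, was at or under 0.0699 RPKM in all 6 libraries.

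Most general neuronal genes had a positive difference. The pan-neuronal list had 19 of 20 members tested and a median difference of 0.35, with 15 positive and 4 negative. Of these, 3 lay wholly above in forebrain (among them Elavl4 and Ina), and 10 were called higher and 2 lower without forebrain 1 and alar plate 3. Gap43, a growth cone protein, had 403, 458 and 472 RPKM in forebrain, against 269.6, 337 and 425 RPKM in alar plate, and Tubb3, the neuronal tubulin, had 1294, 1312 and 1327 RPKM in forebrain, against 1209, 1343 and 1581 RPKM in alar plate. Neither separated the regions. For synaptic vesicle genes the median over 21 tested of 24 was 0.51, with 5 wholly above (among them Stx1a, Rims2, Bsn and Nsf) and none wholly below. The 4-library comparison called 15 of them higher and 1 lower. Beside both lists, 8.33% of all tested genes lay wholly above and 11.1% wholly below, and 10.6% were called higher and 11.4% lower. Rab3a, a vesicle GTPase, had 61.1, 103 and 108 RPKM in forebrain, against 66.2, 77 and 71.2 RPKM in alar plate, and Vamp2, a vesicle fusion protein, had 68.7, 97.9 and 99.4 RPKM in forebrain, against 70.5, 78.6 and 67.8 RPKM in alar plate.

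No progenitor or proliferation gene was called over 6 libraries. The neural progenitor and radial glia list had 19 of 19 tested, a median of -0.22, 1 wholly above (Lin28b) and 3 wholly below (Sox3, Hes5 and Id1), beside 8.33% and 11.1% of all tested genes. Vim, the filament vimentin, had 349, 288 and 275 RPKM in forebrain, against 379.96, 313 and 579.6 RPKM in alar plate, and Sox2, the neural stem cell factor, had 75.96, 24.6 and 30.5 RPKM in forebrain, against 41.2, 37.9 and 107 RPKM in alar plate. Sox3, its relative, had 5.64, 7.27 and 4.60 RPKM in forebrain, against 20.5, 18.4 and 19.4 RPKM in alar plate, all below, with a difference of -1.60 ± 0.17 (SE, n = 3 each; limma adjusted p = 0.158). All 23 genes of the proliferation list had a negative difference, with a median of -0.96, and 3 lay wholly below (Mcm5, Ccne1 and Ccnd1), beside 11.1% of all tested genes. Ccnd1, the G1 cyclin, had 64.5, 21.7 and 18.96 RPKM in forebrain, against 80.1, 88.1 and 100.4 RPKM in alar plate, all below. Top2a, of dividing cells, had 63.6, 13.1 and 16.5 RPKM in forebrain, against 49.7, 46.2 and 62.7 RPKM in alar plate, with forebrain 1 among the alar plate libraries. Without forebrain 1 and alar plate 3, the test called 23 of 23 lower, beside 11.4% of all tested genes.

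No gene of the Wnt, FGF, BMP and retinoic acid lists was called over 6 libraries. Wnt genes had 23 of 30 tested, a median of -0.09, none wholly above and 1 wholly below (Tcf7l1). Fzd1, a Wnt receptor, had 46.5, 48.1 and 32.4 RPKM in forebrain, against 67.5, 75.5 and 38.2 RPKM in alar plate, and Wnt7b, a ligand, had 27.8, 21.4 and 20.8 RPKM in forebrain, against 13.6, 17.9 and 36.6 RPKM in alar plate. FGF genes had 12 of 18 tested, a median of -0.09, 1 wholly above and 1 wholly below (Fgfr1). Fgfr3, an FGF receptor of the ventricular zone, had 45.1, 31.6 and 30.9 RPKM in forebrain, against 18.96, 17.5 and 27.6 RPKM in alar plate, all above. BMP genes had 12 of 20 tested, a median of -0.26, 1 wholly above (Chrd) and 2 wholly below (Id1 and Id2). Of the 12, 10 had a negative difference. Without forebrain 1 and alar plate 3 the median was -0.37, with 1 called higher and 5 lower, beside 10.6% and 11.4% of all tested genes. Id2, an inhibitor of differentiation that BMP induces, had 20.99, 18.9 and 16.3 RPKM in forebrain, against 35.2, 32.4 and 42.1 RPKM in alar plate, all below. Retinoic acid genes, 9 of 15 tested, had a median of -0.44, all 9 negative and 3 wholly below (among them Cyp26b1 and Crabp1), beside 11.1% of all tested genes. Without forebrain 1 and alar plate 3, 5 of the 9 were called lower, beside 11.4% of all tested genes. Crabp2, a retinoic acid binding protein, had 106, 21.9 and 21 RPKM in forebrain, against 107, 87.8 and 125 RPKM in alar plate, with forebrain 1 among the alar plate libraries.

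Most tested genes of the Slit, netrin and semaphorin list and of the cadherin list had positive differences. The first list summed to 502, 508 and 523 RPKM in forebrain, against 515, 505 and 227 RPKM in alar plate. In that sum alar plate 3 alone stood apart. Of the Slit, netrin and semaphorin list, 25 of 26 were tested, with a median of 0.55 (0.25 with the length trend removed), 6 wholly above (Slit1, Slit2, Ntn1, Unc5a, Sema3c and Plxna2) and none wholly below. The 4-library comparison called 11 higher and 6 lower, beside 10.6% and 11.4% of all tested genes. Robo1, a Slit receptor, had 76.7, 71.8 and 61.5 RPKM in forebrain, against 87.7, 94.1 and 26.1 RPKM in alar plate, and Dcc, the netrin receptor, had 38.3, 42.97 and 41.9 RPKM in forebrain, against 59.8, 60.7 and 17.6 RPKM in alar plate, with alar plate 3 lowest in both. Their differences were 0.21 and 0.03 over 6 libraries, and -0.45 and -0.50 without forebrain 1 and alar plate 3. Sema3c, a secreted semaphorin, had 7.83, 6.71 and 5.04 RPKM in forebrain, against 2.08, 1.86 and 2.07 RPKM in alar plate, all above. Cadherins and protocadherins, 20 of 22 tested, had a median of 0.40, 4 wholly above (Cdh4, Cdh8, Pcdh9 and Pcdh11x), none wholly below and 11 called higher and none lower in the 4-library comparison. Beside both lists, 8.33% of all tested genes lay wholly above and 11.1% wholly below. Cdh2, N-cadherin, had 82.03, 89.9 and 92.7 RPKM in forebrain, against 83.5, 84.2 and 63.5 RPKM in alar plate.

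Ephrins and Eph receptors had 20 of 20 tested, a median of -0.14, 3 wholly above (Epha3, Ephb2 and Ephb6) and 5 wholly below (Efna1, Efna5, Efnb1, Epha2 and Ephb4). Of all tested genes, 8.33% lay wholly above and 11.1% wholly below. Ephb2, a receptor, had 116, 75.96 and 79.5 RPKM in forebrain, against 69.7, 71.7 and 34.3 RPKM in alar plate, all above. Efna5, a ligand that forms gradients in the tectum, had 7.14, 5.70 and 4.73 RPKM in forebrain, against 20.3, 20.3 and 8.37 RPKM in alar plate, all below. Epha3, another receptor, had 16.4, 19.1 and 26.1 RPKM in forebrain, against 6.37, 5.03 and 6.88 RPKM in alar plate, a difference of 1.59 ± 0.21 (SE, n = 3 each; limma adjusted p = 0.182). Efna5 counted in both the tectum list and this one.

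Potassium channels had 22 of 28 members tested and a median of 0.65 (0.40 with the length trend removed). In 8 of the 22 forebrain lay wholly above and in 1 wholly below, beside 8.33% and 11.1% of all tested genes. The 4-library comparison called 8 higher and 1 lower, beside 10.6% and 11.4%. Among the 8 wholly above were Kcna2, Kcna6, Kcnq3, Kcnt1, Kcnip1 and Kcnip4, and the 1 wholly below was Kcna4. Kcnh2 had 24.9, 16.1 and 15.2 RPKM in forebrain, against 13.05, 13.3 and 16.1 RPKM in alar plate with overlap. Neuropeptides and granins had 18 of 21 tested, a median of 0.14, 3 wholly above (Gal, Scg3 and Ptprn) and 2 wholly below (Npy and Tac1). Gal was under 1 RPKM in every alar plate library and passed the filter only through forebrain, which fixed that it lay above. Scg3, a granin, had 83.5, 83.5 and 83.9 RPKM in forebrain, against 75.7, 75.2 and 72.2 RPKM in alar plate, all above. Npy, the peptide neuropeptide Y, had 5.36, 5.11 and 2.94 RPKM in forebrain, against 30.05, 13.96 and 11.2 RPKM in alar plate, all below, and Cartpt, another peptide, had 0.940, 29.7 and 36.4 RPKM in forebrain, against 0.226, 0.330 and 1.71 RPKM in alar plate, with forebrain 1 below alar plate 3.

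Ribosomal protein genes were highest in alar plate 3, the library with the length trend, and their difference was smaller but still negative without that trend. All 30 ribosomal protein genes had a negative difference, with a median of -0.60, and 26 lay wholly below in forebrain, beside 11.1% of all tested genes. Rpl8 had 437, 417 and 394 RPKM in forebrain, against 514, 495 and 985 RPKM in alar plate. Alar plate 3 was far above the other 5 libraries. The RPKM of all genes summed to 489420 in alar plate 3 and to 375778 to 382281 in the other 5, and the part of this in the differences was not tested. With the length trend removed the median was -0.28. Without forebrain 1 and alar plate 3 it was -0.30, with 24 of 30 called lower, beside 11.4% of all tested genes. Genes of oxidative phosphorylation, 20 of 20 tested and all negative over 6 libraries with 2 wholly below (Sdhc and Atp5j2), had a median of -0.33, of -0.01 with the trend removed and of 0.03 in the 4-library comparison. Atp5b, an ATP synthase subunit, had 435, 395 and 413 RPKM in forebrain, against 416, 414 and 559 RPKM in alar plate.

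Markers of other cell types differed between single libraries. The meninges and mesenchyme list, of which 7 of 16 were tested, had a median of -2.07 and summed to 21.8, 15 and 15.9 RPKM in forebrain, against 193, 10.6 and 61.1 RPKM in alar plate. Col3a1, a fibrillar collagen, had 7.62, 2.03 and 1.85 RPKM in forebrain, against 55.8, 4.23 and 17.5 RPKM in alar plate. Alar plate 1, which also led in Pax5, was the highest library, and the part of these cells in any difference was not tested. The erythroid list had 6 of 12 tested and a median of -0.35, which was -0.01 with the length trend removed and -0.07 without forebrain 1 and alar plate 3, and Hbb-y, an embryonic globin, had 829, 767 and 660.3 RPKM in forebrain, against 957, 589 and 1618 RPKM in alar plate.

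The endothelium and pericyte list, 15 of 16 tested, had a median of -0.06 and no member apart, and Cldn5, a tight junction protein, had 10.6, 13.7 and 13.7 RPKM in forebrain, against 15.2, 10.8 and 22.2 RPKM in alar plate. Microglia and macrophage genes, 9 of 15 tested, had a median of -0.35 and 2 wholly below (Fcer1g and Pf4). Fcer1g was under 1 RPKM in every forebrain library and passed the filter only through alar plate, which fixed that it lay below. For the lists here, 8.33% of all tested genes lay wholly above and 11.1% wholly below. Neural crest and cranial ganglion genes, 7 of 14 tested, had a median of -0.60, with 1 wholly above and 3 wholly below (Pou4f1, Eya2 and Prph), of which Pou4f1 and Prph are also genes of brain neurons. The defining crest gene Sox10 was at 0, 0.151 and 0.234 RPKM in forebrain, against 0.809, 0.971 and 0.417 RPKM in alar plate. Immediate early and stress genes, 8 of 14 tested, had a median of 0.03 and 1 wholly below (Jun). Choroid plexus genes had 4 of 10 tested, a median of 0.13 and 1 wholly below, Otx2. Of pituitary genes 2 of 11 were tested, with a median of 0.01, of muscle and surface ectoderm genes 1 of 12, with a difference of -0.43, and of eye and pigment genes none of 13.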

How the data were processed

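The deposited values are RPKM, read counts divided by gene model length and mapped reads, computed by the authors for 24264 genes in 15 libraries of 5 regions. The submitters' processing notes name Bowtie and the mouse build mm9. The aligner version, the annotation and the use of strand in counting were not given in the sources used here, so overlapping genes cannot be separated. Low values were whole multiples of the value of 1 read in every library for 16480 of 16612 genes (99.2%, within 0.02 to 0.15 reads), which gave a length per gene and 7779302 to 11775206 reads per library. The lengths had a Spearman correlation of 0.874 with the lengths of 14550 genes of a GRCm38 annotation, which served for this check only.

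From these values, log2(RPKM + 1) of the 3 forebrain and 3 alar plate libraries was fitted with limma 3.58.1 in R 4.3.3 (moderated test with an intensity trend, two-sided). P-values were adjusted by Benjamini and Hochberg over the 12871 genes with at least 1 RPKM in at least 3 of the 6 libraries, and genes at an adjusted p under 0.05 were called. A difference on this scale understates the change of low genes. The length correction subtracted a smooth of each library's deviation on log length (span 0.3). The fit was tested on simulated data, where the share of false calls was at times above the nominal level, so calls near the threshold are less certain than their adjusted p.

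Genes named are the 10 per direction with the largest difference among called genes or, as none was called, among genes whose regions do not overlap with a mean of at least 5 RPKM in the higher region. To these were added the most abundant members of each of 40 gene lists and members of the region lists; some of these are not reported here. The lists, and the choice to leave out forebrain 1 and alar plate 3, were made with earlier results of these data known. Alternatives changed the pseudocount, filter, scaling, libraries, length correction and replicate block.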

Additional observations from a re-analysis of the deposited data

How the results depend on the processing

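Over 6 libraries no gene was called at pseudocounts of 0.5 and 0.1, with a filter at 5 RPKM or none, under quantile or median-ratio scaling, or with the length correction. Leaving out 1 library gave 0 to 4 calls, with 4 without forebrain 1 and 2 without alar plate 3. Fitting all 15 libraries gave 27, array weights gave 2974, and leaving out forebrain 1 and alar plate 3 together gave 2833. With the length correction added to that, an alternative chosen after seeing the data like every other variant of the 4-library comparison, 2526 genes were called.

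Whether the replicate numbers pair the samples was not settled. The deviations of same-numbered libraries correlated at -0.17, 0.37 and -0.11, and those of differently numbered ones at -0.36 to 0.28. These values cannot decide it, since each region has few libraries and 1 of them stood apart. A replicate block left 0 calls, also with the length correction. The 4-library count was 2832 and 2818 at pseudocounts of 0.5 and 0.1, 2553 with a filter at 5 RPKM, 2779 and 2620 under quantile and median-ratio scaling, 1031 with 13 libraries fitted and 0 with no filter, and the cause was not tested. With 1 of its libraries left out it lay between 552 and 2216, where the lone sample is assumed to vary like the other region.

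Of 130 genes named and tested, 117 had 1 sign under every alternative that tested them (up to 19). The 20 leading genes are among them, but they were chosen for regions that do not overlap, which fixes their sign when libraries are left out. For the others the cause was not tested, and the log2 differences of opposite sign were as follows. Without forebrain 1 and alar plate 3 they were -0.50 for Dcc, -0.45 for Robo1, -0.075 for Slc17a6, 0.051 for Tubb3 and 0.089 for Cldn5. With the length correction added they were -0.48, -0.42 and -0.058 for Dcc, Robo1 and Slc17a6, 0.13 for Cldn5 and 0.000605 for Atp5b. Array weights gave -0.48 for Dcc, -0.39 for Robo1, -0.13 for Slc17a6, 0.027 for Tubb3, 0.11 for Cldn5 and 0.030 for Hbb-y. The length correction gave -0.31 for Dcc and -0.035 for Robo1, with and without the replicate block, and quantile scaling 0.18 for Atp5b and 0.11 for Tubb3. Over single libraries left out the difference ranged from -0.54 to 0.32 for Dcc (-0.00296 without forebrain 2), -0.38 to 0.53 for Robo1, -0.028 to 0.21 for Slc17a6, -0.15 to 0.041 for Tubb3, -0.18 to 2.35 for Dlx1, -0.98 to 0.16 for En1, -0.34 to 1.25 for Neurog2, -0.52 to 2.46 for Olig3, -0.14 to 0.54 for Wnt7b and -0.49 to 1.62 for Zic1. Of 702 alternative medians of 37 gene lists, 26 moved by more than their spread. Depth limits genes near the floor of 3 reads, at 0.0771 to 0.112 RPKM.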
